A study of Homo sapiens with 11 samples.

Results

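A set of 10 genes of the actin cytoskeleton and the contractile machinery (ACTB, ACTG1, MYL9, TPM1, TPM2, ACTN1, CALD1, FLNA, MYH9 and VCL) were followed in the human lung adenocarcinoma line A549 under cigarette smoke condensate (CSC), which is the tar-like particulate part of smoke dissolved for use on cells. The genes were chosen by name, and all 10 of them were found among the 23608 gene symbols with usable values and passed the filter on low values that left 12506 genes for testing. The groups were cells given CSC for 2 weeks (3 libraries), the vehicle DMSO for 2 weeks (3 libraries), CSC for 48 hours (3 libraries) and DMSO for 48 hours (2 libraries, numbered replicates 2 and 3). The CSC dose is labelled 20 µM, although CSC is a mixture. All groups are cultures of 1 cell line, and nothing in the labels says that the libraries of a group came from separate cultures, so each p-value measures only the spread between these libraries.

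Actin filaments are built from actin subunits and are pulled on by nonmuscle myosin II, whose regulatory light chains are phosphorylated to switch contraction on. Tropomyosins lie along the filament and, with caldesmon, control which proteins can bind it, while filamins and alpha-actinins join filaments into networks and bundles and vinculin links them to sites of adhesion. In epithelial cells these proteins form stress fibres, the cortex under the membrane and the belts at cell contacts, and many of their genes are targets of serum response factor (SRF), which binds a promoter motif called the CArG box.

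The cytoplasmic actins come from separate genes with nearly the same coding sequence, which bears on how far their values can be told apart. Their first 30 coding bases are shown with the 6 bases that differ between them in capitals, read from the GENCODE transcripts of the hg19 assembly.
ACTB: atggaTgaTgaTatcgccgcgctCgtcGtC
ACTG1: atggaAgaAgaGatcgccgcgctGgtcAtT
Over the whole coding sequence of 1128 bases, 99 bases differed (91.22% identity), and the longest identical stretch ran for 59 bases. Short fragments can therefore fit either gene, the split between ACTB and ACTG1 rests on the authors' counting, and both are reported as uncertain in that respect.

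Promoter sequences from RefSeq (GRCh38.p14) were matched for 8 of the 10 genes, in 15 windows that ran from 250 bases before to 50 bases after a gene start. ACTB and MYL9 were not matched. A CArG box, searched as a pattern whose reverse complement is the same pattern, was found in 3 of the 15 windows (20.0%), those of ACTG1, FLNA and 1 of the windows of ACTN1, against 1.29% of the 35116 windows in the table and 8.14% of the 172 windows of the other actin genes listed for comparison. The 250 bases before the gene start are shown for FLNA and ACTG1, which both hold a box, and for VCL, which holds none. Capitals mark the box, which began 94 bases before the start in both genes. The positions are chrX:154374635-154374884 on the minus strand for FLNA, chr17:81512800-81513049 on the minus strand for ACTG1 and chr10:73997866-73998115 on the plus strand for VCL.
FLNA: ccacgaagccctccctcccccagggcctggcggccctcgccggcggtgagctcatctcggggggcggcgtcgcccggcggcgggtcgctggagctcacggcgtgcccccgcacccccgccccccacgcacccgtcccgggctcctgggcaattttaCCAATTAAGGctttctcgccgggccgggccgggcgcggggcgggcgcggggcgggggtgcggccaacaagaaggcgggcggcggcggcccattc
ACTG1: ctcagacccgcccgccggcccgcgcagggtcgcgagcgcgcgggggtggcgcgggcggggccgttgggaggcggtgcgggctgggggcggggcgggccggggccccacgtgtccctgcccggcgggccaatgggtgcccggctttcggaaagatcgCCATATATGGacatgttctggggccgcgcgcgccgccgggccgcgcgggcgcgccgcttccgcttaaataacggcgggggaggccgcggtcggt
VCL: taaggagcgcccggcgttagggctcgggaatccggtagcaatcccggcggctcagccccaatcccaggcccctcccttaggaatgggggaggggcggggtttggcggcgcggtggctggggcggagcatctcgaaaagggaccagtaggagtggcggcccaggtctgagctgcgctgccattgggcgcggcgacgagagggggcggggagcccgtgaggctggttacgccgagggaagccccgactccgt
A match is a run of letters and not a measured binding site. Whether a box goes with the change of a gene under CSC was not tested.

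Expression was deposited as FPKM (fragments per kilobase of transcript, relative to the mapped fragments of the library), a unit that divides by transcript length, so levels of different genes can be set side by side. The 11 libraries summed to between 338507 and 484053 FPKM and listed 11742 to 12051 genes at 1 FPKM or more. Depth in reads is unknown; the width of the deposited bounds put 10 libraries within 1 to 1.36 of the shallowest and CSC 2 weeks replicate 2 at 2.66. Epithelial markers summed to 2096 to 2769 FPKM in CSC and 3060 to 3554 FPKM in DMSO at 2 weeks, and to 1225 to 1594 FPKM in CSC and 1922 to 2250 FPKM in DMSO at 48 hours, with all 5 markers detected. KRT8 and KRT18 made up most of these sums. At 2 weeks KRT8 differed by -0.58, KRT18 by -0.51, EPCAM by -0.41 and CDH1 by -0.38, but KRT19 by 0.09 (limma adjusted p 0.0529 to 0.785). At 48 hours KRT8 differed by -0.65, KRT18 by -0.59 and CDH1 by -0.71, but EPCAM by 0.48 and KRT19 by 0.44 (limma adjusted p 0.190 to 0.635). Of 7 fibroblast markers, 5 stayed under 0.5 FPKM in every library, and the list summed to 10.9 to 12.8 FPKM in CSC and 13.2 to 14.8 FPKM in DMSO at 2 weeks. The 2 markers behind that sum went opposite ways, with a 2-week difference of -0.51 for COL1A1 (limma adjusted p 0.0758) and 0.56 for THY1 (0.108). The leukocyte list, of which CD14 alone of 3 markers passed the filter, summed to 3.28 to 4.42 FPKM in CSC and 2.37 to 2.70 FPKM in DMSO at 2 weeks. At 48 hours the leukocyte list lay the other way, at 1.30 to 2.29 FPKM in CSC and 2.30 to 2.63 FPKM in DMSO. The fibroblast list then summed to 6.01 to 7.61 FPKM in CSC and 7.09 to 8.34 FPKM in DMSO. All 3 endothelial markers stayed under 0.5 FPKM. The part of these marker levels in the results on the 10 genes was not tested.

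The 10 genes took 0.975% to 1.60% of a library's summed FPKM, most of it from actin. By mean level in DMSO at 2 weeks the order was ACTB, ACTG1, FLNA, TPM1, TPM2, MYH9, ACTN1, VCL, CALD1 and MYL9. Neighbours in this order kept it in all 11 libraries, except TPM2 over MYH9, which held in 6, and ACTN1 over VCL, which held in 3. ACTB, the beta-actin gene, stood between the third and the eighth highest of all genes in every library, and ACTG1, the gamma-actin gene, between the fifth and the ninth. MYL9, a regulatory light chain of myosin II typical of smooth muscle, was the lowest of the 10 by far, at 1.02 to 5.14 FPKM.

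**Figure D1:**
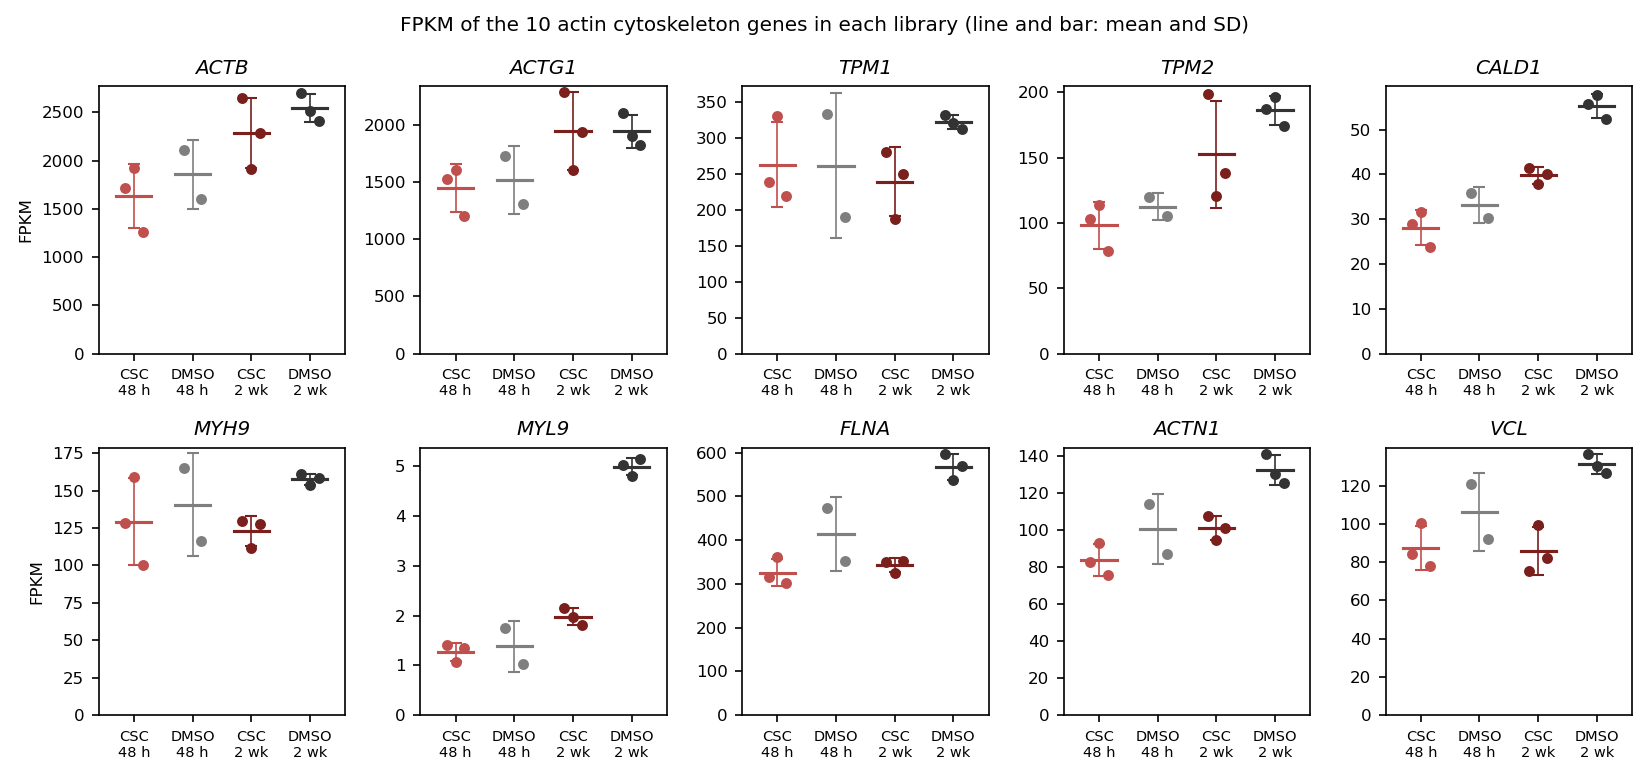
FPKM of each of the 10 genes (vertical axes, each with its own scale) in every library (points), by group, with the group mean and SD as bars; at 2 weeks the MYL9 points lie at 1.82 to 2.16 FPKM in CSC and at 4.81 to 5.14 FPKM in DMSO, and the FLNA points at 325 to 353 FPKM in CSC and 537 to 596 FPKM in DMSO.

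After 2 weeks, 4 of the 10 genes were lower in CSC than in DMSO at an adjusted p under 0.05 (limma with Benjamini-Hochberg adjustment over all 12506 genes), and none was higher: MYL9, FLNA, VCL and CALD1. Of all genes 5.41% were called, 3.01% higher and 2.4% lower, and since the 10 were chosen with earlier results of these data known, their share beside this background is a description. The changes of all 10 genes were negative, with a median of -0.42 on the log2 scale beside 0.09 over all genes tested. For CSC against DMSO, a fall or a rise is a level below or above DMSO at the same time, not a change over time. In 7 of the 10 (MYL9, TPM1, ACTN1, CALD1, FLNA, MYH9 and VCL) every CSC library lay below every DMSO library, a position that 9.84% of all genes held, while none had every CSC library above, as 20.3% of all genes did. With the libraries scaled by median of ratios, to a common sum or by quantile normalization, the calls over all genes were 285 higher and 473 lower, 264 and 486, and 325 and 441, beside 376 higher and 300 lower with the deposited values, and the median of all genes was -0.00, -0.04 and 0.02. CSC 2 weeks replicate 2, the deepest library, was the lowest CSC library at 2 weeks for 8 of the 10 genes, and without it 1310 genes were called higher and 534 lower. In bulk RNA, fewer cells that express a gene and less of its RNA per cell cannot be told apart.

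Among the motor subunits, MYL9 (chr20:35169887-35178226, hg19, as are the other gene positions from here on) was at 2.16, 1.97 and 1.82 FPKM in the 3 CSC libraries, against 5.04, 4.81 and 5.14 FPKM in the 3 DMSO libraries. Every CSC library lay far below every DMSO library. It fell by 1.15 on the log2(FPKM + 0.5) scale (SE 0.16, 95% interval -1.49 to -0.81, limma adjusted p 0.00118), to 0.451 of its DMSO level on that scale. The deposited bounds of MYL9 reached 29.4% to 81.2% of its value to either side, the widest of the 10 genes. MYH9 (chr22:36677323-36784063), the heavy chain of nonmuscle myosin IIA, was at 130, 112 and 128 FPKM in CSC and 161, 153 and 159 FPKM in DMSO. Its CSC libraries were all lower, but the difference of -0.36 (SE 0.17) did not pass (limma adjusted p 0.211).

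Among the filament crosslinkers, FLNA (chrX:153576900-153603006), which encodes filamin A, was at 351, 325 and 353 FPKM in CSC, against 596, 537 and 569 FPKM in DMSO. The CSC libraries were close together and all well below the DMSO libraries. FLNA fell by 0.73 on the log2 scale (SE 0.14, 95% interval -1.02 to -0.43, limma adjusted p 0.010), to 0.605 of the DMSO level. ACTN1 (chr14:69340840-69446083), which encodes alpha-actinin 1, was at 107, 94.7 and 101 FPKM in CSC and 141, 130 and 125 FPKM in DMSO. These groups did not overlap either, but the difference of -0.39 (SE 0.13) missed the threshold (limma adjusted p 0.0914) and passed under all 3 other scalings of the libraries (0.0137 to 0.0241).

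VCL (chr10:75757872-75879914), the gene of the adhesion linker vinculin, was at 75.4, 99.6 and 82.0 FPKM in CSC, against 137, 131 and 127 FPKM in DMSO. All CSC libraries were below all DMSO libraries, and CSC replicate 2 was the nearest to them. VCL fell by 0.62 (SE 0.14, 95% interval -0.93 to -0.31, limma adjusted p 0.0265), to 0.649 of the DMSO level. Its call was lost without any 1 of CSC 2 weeks replicates 1 and 3 and DMSO 2 weeks replicates 1, 2 and 3, at adjusted p 0.0804 to 0.109, and without the filter on low values (0.0579). Over all libraries left out in turn its change stayed between -0.74 and -0.54.

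Among the filament-binding regulators, CALD1 (chr7:134464164-134655480), which encodes caldesmon, was at 41.4, 37.8 and 40.2 FPKM in CSC, against 55.8, 57.8 and 52.5 FPKM in DMSO. The groups were separate, with a narrow spread in each. CALD1 fell by 0.47 (SE 0.12, 95% interval -0.73 to -0.21, limma adjusted p 0.0402), to 0.722 of the DMSO level. Leaving out CSC 48 hours replicate 1, CSC 2 weeks replicate 1 or 3, or any DMSO 2 weeks library took its adjusted p to between 0.0569 and 0.138, and fitting without the filter took it to 0.0616, while its change stayed between -0.51 and -0.43 with any 1 library left out. FLNA lost its call without DMSO 2 weeks replicate 1 (0.0547), and MYL9 kept its call without any 1 library.

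The tropomyosins, which coat the filament, did not pass with the deposited values. TPM1 (chr15:63334838-63364113) was at 280, 187 and 250 FPKM in CSC and 331.5, 321 and 312 FPKM in DMSO, all CSC libraries lower but widely spread, a difference of -0.45 (SE 0.22, limma adjusted p 0.226). With quantile normalization the TPM1 difference was -0.70 and passed (limma adjusted p 0.0282). TPM2 (chr9:35681990-35690053) was at 199, 121 and 138 FPKM in CSC and 188, 197 and 175 FPKM in DMSO, with CSC replicate 1 above every DMSO library, a difference of -0.32 (SE 0.18, limma adjusted p 0.300). The intervals of both included 0 and also a fall of 0.71 or more.

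The actins had the smallest differences of the 10. ACTB (chr7:5566779-5570232) was at 2646, 1918 and 2287 FPKM in CSC and 2703, 2515 and 2416 FPKM in DMSO, with overlap, a difference of -0.17 (95% interval -0.59 to 0.26, limma adjusted p 0.627). ACTG1 (chr17:79476997-79479892) was at 2287, 1605 and 1940 FPKM in CSC and 2106, 1903 and 1821 FPKM in DMSO, with overlap, a difference of -0.01 (95% interval -0.41 to 0.39, limma adjusted p 0.974). The intervals leave room for a change of up to 0.59 in ACTB. ACTB values exceeded their own deposited upper bound in 11 of 11 libraries, FLNA values lay under their lower bound in 6 and ACTG1 values in 3, so the bounds of these abundant genes were not used.

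**Figure D2:**
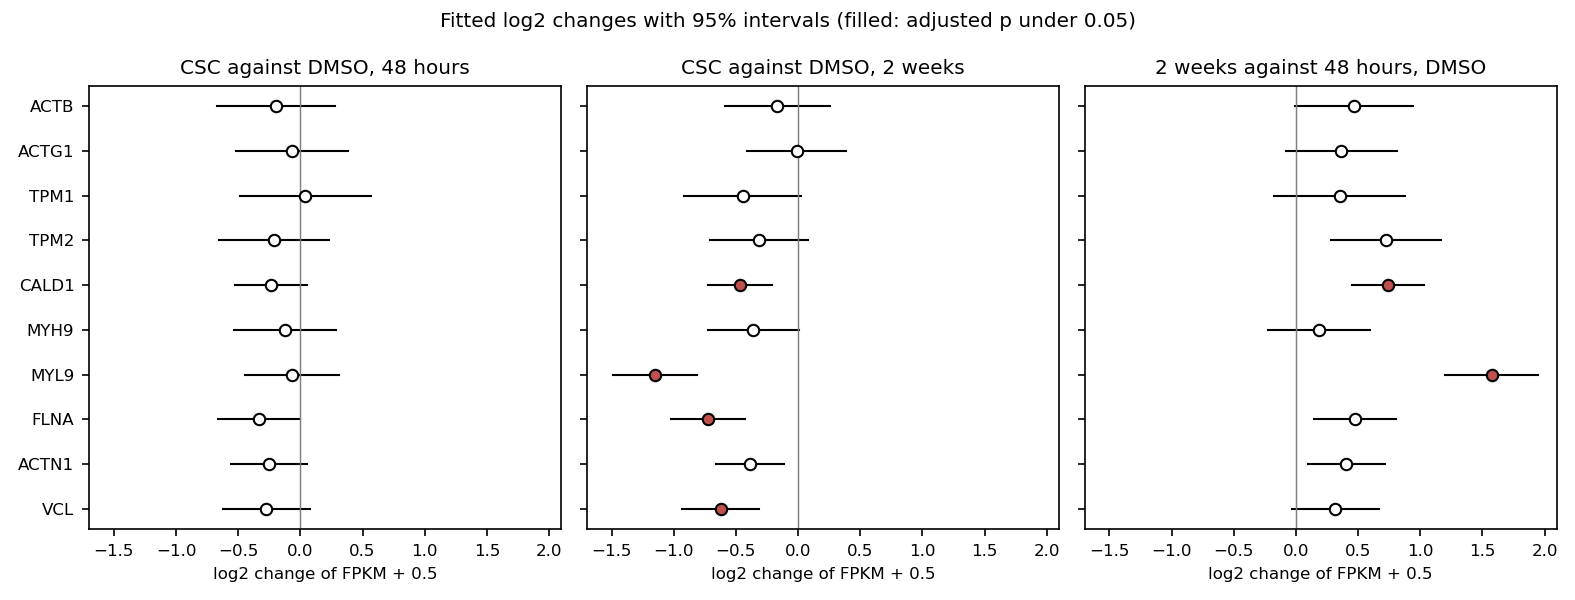
Log2 change of FPKM + 0.5 with its 95% interval (horizontal axis) for each of the 10 genes, in CSC against DMSO at 2 weeks and at 48 hours and in DMSO at 2 weeks against 48 hours; filled points pass an adjusted p of 0.05, which are MYL9, FLNA, VCL and CALD1 (negative) at 2 weeks and MYL9 and CALD1 (positive) over time in DMSO.

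Because the libraries differ in scale, each gene was also set against ACTB within its library, a ratio chosen after the values were seen and given as a description. FLNA was at 13.2%, 16.9% and 15.4% of ACTB in CSC and at 22.0%, 21.4% and 23.5% in DMSO at 2 weeks, which kept the groups apart. VCL was at 2.85%, 5.19% and 3.59% in CSC and at 5.06%, 5.19% and 5.25% in DMSO, so that CSC replicate 2 lay within the DMSO range. MYL9, TPM1, ACTN1, CALD1 and MYH9 stayed below in every CSC library, whereas ACTG1 was above in every CSC library, at 86.4%, 83.7% and 84.8% against 77.9%, 75.7% and 75.4% in DMSO. The actins made up 80.6%, 78.3% and 79.5% of the summed FPKM of the 10 genes in CSC, against 74.9%, 74.3% and 73.6% in DMSO. At 48 hours the ratio of ACTG1 to ACTB was also above in every CSC library, at 89.3%, 83.4% and 95.45% against 82.0% and 81.6% in DMSO. The ratios of the other genes overlapped at that time. The split between ACTB and ACTG1 is uncertain, and so is their ratio. The share of all genes whose ratio to ACTB lay apart in the same way was not computed. These positions therefore have no background beside them.

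**Figure D3:**
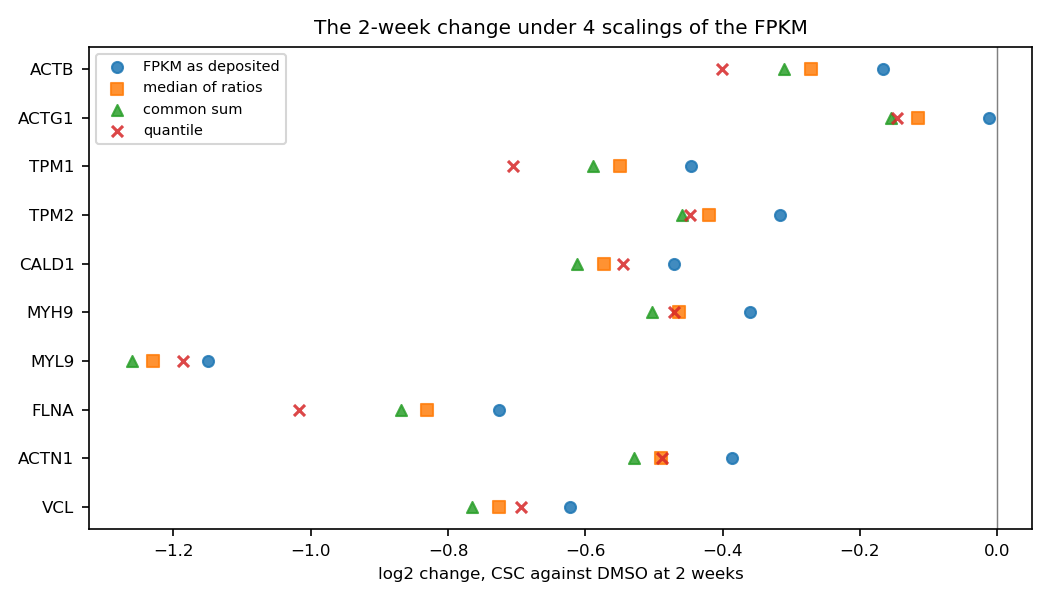
Log2 change in CSC against DMSO at 2 weeks (horizontal axis) of each of the 10 genes under the deposited FPKM and under 3 other scalings of the libraries; all 10 genes are negative under all 4 scalings, and MYL9 is the farthest to the left under each.

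After 48 hours none of the 10 genes was called by limma, where 0.288% of all genes were (0.104% higher and 0.184% lower). Beside 1062 of the 12506 genes tested, 1 of the 10 had an unadjusted limma p under 0.05. The changes were negative in 9 of the 10, with a median of -0.20 beside 0.00 over all genes, but CSC and DMSO libraries overlapped for every gene, while 11% of all genes had every CSC library above and 11.8% every CSC library below. FLNA, the gene with that p, was at 315, 361 and 301 FPKM in CSC, against 473 and 353 FPKM in DMSO. Its CSC replicate 2 lay above the lower DMSO library, and the difference of -0.33 (SE 0.15, 95% interval -0.66 to -0.00) had a limma adjusted p of 0.587. VCL was at 84.4, 100 and 78.0 FPKM in CSC and 121 and 91.9 FPKM in DMSO, a difference of -0.27 (SE 0.16, limma adjusted p 0.724). CALD1 differed by -0.24 (SE 0.13) and ACTN1 by -0.25 (SE 0.14), both with a limma adjusted p of 0.710.

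MYL9 at 48 hours was at 1.40, 1.06 and 1.34 FPKM in CSC and at 1.75 and 1.02 FPKM in DMSO, values on both sides of each other, with a difference of -0.07. The remaining differences were -0.21 for TPM2, -0.19 for ACTB, -0.12 for MYH9, -0.07 for ACTG1 and 0.04 for TPM1, with limma adjusted p of 0.879 to 0.981. The 48-hour libraries shared much of their spread across the 10 genes. DMSO replicate 3 was below DMSO replicate 2 for 10 of 10 genes, and CSC replicate 3 was the lowest CSC library for 9 of 10. The median of the 10 genes stood 0.47 under the mean of all libraries in CSC replicate 3 and 0.34 under it in DMSO replicate 3.

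The change at 2 weeks minus that at 48 hours was tested directly. None of the 10 genes passed, where 0.04% of all genes did (0.008% higher and 0.032% lower). Beside 876 of the 12506 genes tested, 1 of the 10 had an unadjusted limma p under 0.05. That gene was MYL9, with a difference between the effects of -1.08 (SE 0.23, 95% interval -1.59 to -0.58, limma p 0.000519, adjusted p 0.325). The difference was -0.39 for FLNA (limma adjusted p 0.709), -0.35 for VCL (0.739) and -0.23 for CALD1 (0.785). A call at 2 weeks and none at 48 hours is therefore not shown to be a difference between the times for any of the 10.

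At 2 weeks against 48 hours in DMSO, MYL9 and CALD1 were called higher and none lower, where 0.768% of all genes were called (0.656% higher and 0.112% lower), and all 10 changes were positive with a median of 0.44 beside 0.09 over all genes. MYL9 was at 5.04, 4.81 and 5.14 FPKM at 2 weeks and at 1.75 and 1.02 FPKM at 48 hours, well apart, and rose by 1.57 (SE 0.17, 95% interval 1.20 to 1.95, limma adjusted p 8.09e-04). CALD1 was at 55.8, 57.8 and 52.5 FPKM at 2 weeks and at 35.9 and 30.2 FPKM at 48 hours, also apart, and rose by 0.74 (SE 0.13, limma adjusted p 0.0261). CALD1 lost this call without DMSO 48 hours replicate 2 or 3, CSC 2 weeks replicate 3 or any DMSO 2 weeks library (adjusted p 0.0507 to 0.226), and with a common sum, quantile normalization or no filter (0.0561 to 0.0711). In 8 of the 10 genes, all but TPM1 and MYH9, every 2-week library was above every 48-hour library, as in 28.8% of all genes, and none had every 2-week library below, as 7.88% of all genes did. Over all genes 82 were higher and 14 lower with the deposited values, 43 and 19 with median of ratios, 32 and 14 with a common sum, and 41 and 19 with quantile normalization.

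In CSC over the same time, TPM2 and CALD1 were called higher and none lower, where 13.7% of all genes were called (12.3% higher and 1.38% lower), and the median change was 0.35 beside 0.19 over all genes. This background rested on the scale: 1536 genes were higher and 172 lower with the deposited values, 152 and 251 with median of ratios, 84 and 458 with a common sum, and 123 and 201 with quantile normalization, with a median of all genes of 0.00, -0.09 and 0.01 under the 3 other scalings. TPM2 was at 199, 121 and 138 FPKM at 2 weeks and at 103, 113 and 78.2 FPKM at 48 hours, a rise of 0.62 (SE 0.18, limma adjusted p 0.0437). CALD1 was at 41.4, 37.8 and 40.2 FPKM at 2 weeks and at 29.0, 31.5 and 23.8 FPKM at 48 hours, a rise of 0.50 (SE 0.12, limma adjusted p 0.0249). Neither gene passed under any of the 3 other scalings or with the compared libraries alone, TPM2 passed with CSC 2 weeks replicate 2 left out and lost its call with any other single library left out, and CALD1 was lost without CSC 2 weeks replicate 1 (0.0796) or 3 (0.0602). In 5 of the 10 genes every 2-week CSC library was above every 48-hour CSC library, as in 28.4% of all genes, and in none below, as in 4.47%. MYL9 differed by 0.49 (limma adjusted p 0.0531), FLNA by 0.08 (0.711) and VCL by -0.03 (0.893). The comparisons in CSC and in DMSO share libraries with those of CSC against DMSO, so their values stand side by side and are no independent support for each other.

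The other actin genes were taken from 8 lists by role, 104 genes in all, of which 93 passed the filter. At 2 weeks 7 of the 93 were lower in CSC and 1 was higher, beside 2.4% lower and 3.01% higher of all genes. The lower count was 13, 14 and 13 with median of ratios, a common sum and quantile normalization. Of the 93 changes 50 were negative, with a median of -0.02, beside 4368 of 12506 and a median of 0.09 over all genes. At 48 hours 1 was lower and none was higher, beside 0.184% and 0.104% of all genes, with 63 of 93 changes negative and a median of -0.06, beside 6208 of 12506 and 0.00. MYOCD, 1 of the 7 lower genes, and SYNPO2 reached the filter minimum of 1 FPKM in DMSO libraries only, so that both could enter the test only by being higher there.

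**Figure D4:**
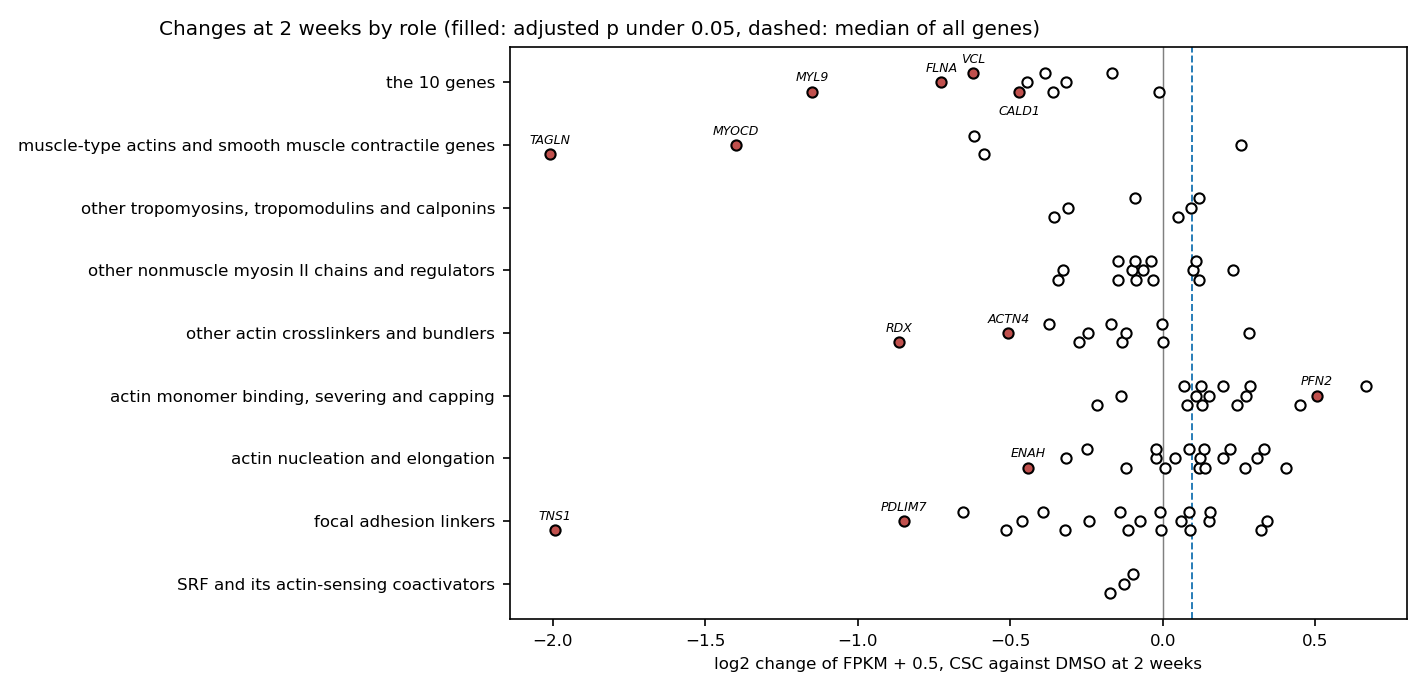
Log2 change in CSC against DMSO at 2 weeks (horizontal axis) for the 10 genes and the 8 other lists by role (rows), each point a gene, filled where the adjusted p is under 0.05, with the median of all genes dashed; the called genes lie to the left of 0 except PFN2, at 0.51.

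Among the muscle-type actins and smooth muscle genes, 5 of 12 were tested, and TAGLN and MYOCD were lower at 2 weeks. TAGLN, which encodes the smooth muscle actin-binding protein transgelin, was at 10.1, 6.67 and 9.44 FPKM in CSC, against 37.8, 33.9 and 36.6 FPKM in DMSO, and fell by 2.01 (SE 0.41, limma adjusted p 0.0151). MYOCD, the SRF coactivator myocardin, was at 0.341, 0.510 and 0.390 FPKM in CSC, against 1.86, 1.69 and 2.18 FPKM in DMSO, and fell by 1.40 (SE 0.17, limma adjusted p 7.39e-04). The groups did not overlap for either gene. MYOCD was at 0.341 to 0.608 FPKM in all CSC libraries of both times, under the filter minimum of 1 FPKM. It therefore entered the test only through its DMSO libraries, and its test results at both times are given as a description. At 48 hours MYOCD differed by -1.02 (limma adjusted p 0.0553), with every CSC library below, as in 11.8% of all genes. It then passed with quantile normalization (limma adjusted p 0.0470) and without the trend (0.0186). SYNPO2, an actin-bundling synaptopodin relative, differed by -0.62 (limma adjusted p 0.0614) and passed under all 3 other scalings of the libraries (0.0242 to 0.0454). It too reached the filter minimum in DMSO libraries only, so its values are a description as well.

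Of 20 focal adhesion linkers, 2 were lower and none was higher, with a median of -0.09. TNS1, which encodes the adhesion protein tensin 1, was at 1.39, 1.86 and 1.65 FPKM in CSC, against 7.97, 7.54 and 8.37 FPKM in DMSO, and fell by 1.99 (SE 0.16, limma adjusted p 2.75e-05). At 48 hours its difference was -0.88 (limma adjusted p 0.0637). PDLIM7, a PDZ and LIM domain protein of the cytoskeleton, fell by 0.85 (SE 0.17, limma adjusted p 0.0151). FERMT2, the integrin activator kindlin 2, differed by -0.51 (limma adjusted p 0.0511).

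Of 11 other crosslinkers and bundlers, 2 were lower, with a median of -0.17. RDX encodes radixin, which ties actin to the membrane, and was at 73.7, 80.9 and 69.2 FPKM in CSC, against 140.5, 144 and 125 FPKM in DMSO at 2 weeks, a fall of 0.86 (SE 0.10, limma adjusted p 6.20e-04). It was the 1 listed gene called at 48 hours as well, at 48.6, 46.4 and 46.5 FPKM in CSC, against 83.0 and 91.4 FPKM in DMSO, a fall of 0.88 (SE 0.12, limma adjusted p 0.00679). The 48-hour call of RDX was lost without DMSO 48 hours replicate 3 (0.119) and with the compared libraries alone (0.131). ACTN4, the second nonmuscle alpha-actinin, fell by 0.51 (SE 0.13, limma adjusted p 0.0419) at 2 weeks, and the plastin PLS3 differed by -0.37 (0.0765). PLS3 passed at 2 weeks under all 3 other scalings of the libraries (limma adjusted p 0.00229 to 0.00799). At 48 hours ACTN4 differed by -0.47 (limma adjusted p 0.286) and PLS3 by -0.42 (0.281). Each had every CSC library below every DMSO library, as 11.8% of all genes did, and both were named for their low p.

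Of 15 monomer-binding, severing and capping genes, 1 was higher and none lower at 2 weeks, with a median of 0.15 beside 0.09 over all genes, and of 0.049, 0.010 and 0.030 under the other scalings. PFN2, which encodes profilin 2, a carrier of actin monomers, was at 77.6, 67.7 and 80.5 FPKM in CSC, against 53.1, 53.6 and 51.4 FPKM in DMSO, and rose by 0.51 (SE 0.10, limma adjusted p 0.0150). The capping protein gene CAPG differed by 0.67 (limma adjusted p 0.0564) and the thymosin gene TMSB10 by 0.45 (0.183). Of 19 nucleation and elongation genes, 1 was lower, with a median of 0.12, and of 0.017, -0.021 and 0.016 under the other scalings: ENAH, an elongation factor at filament ends, fell by 0.44 (SE 0.11, limma adjusted p 0.0418), while the formin DIAPH2 differed by 0.40 (0.0529) and WASF2 by 0.33 (0.115).

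The remaining 3 lists held no call at 2 weeks with the deposited values. Among 14 other myosin II chains, kinases and phosphatase subunits, 1, 2 and 1 were lower under the other scalings, and the median was -0.08, with ROCK2, a kinase that promotes contraction, at -0.33 (limma adjusted p 0.0835), RHOB at -0.34 (0.182) and MYH10, the heavy chain of myosin IIB, at -0.09 (0.581). Among 6 other tropomyosins, tropomodulins and calponins the median was -0.02, with TPM4 at -0.36 (limma adjusted p 0.211), CNN3 at 0.09 (0.671) and TMOD3 at 0.05 (0.769). TPM4 passed with quantile normalization (limma adjusted p 0.0223), ROCK2 under all 3 other scalings of the libraries (0.0157 to 0.0205) and RHOB with a common sum (0.0326). SRF differed by -0.10 (limma adjusted p 0.745), and its actin-sensing coactivators MKL1 by -0.17 (0.329) and MKL2 by -0.13 (0.434). The signs of CNN3 and TMOD3 turned negative under the 3 other scalings. At 48 hours TMOD3 differed by -0.31 (limma adjusted p 0.342), MYH10 by -0.25 (0.520), CNN3 by -0.24 (0.711) and SRF by 0.22 with overlap (0.837). Every CSC library lay below every DMSO library for TMOD3, MYH10 and CNN3, a position that 11.8% of all genes held. These genes were named for their low p, so this position is a description. The calls of TAGLN, PDLIM7, ACTN4, ENAH and PFN2 were each lost without DMSO 2 weeks replicate 1, 2 or 3, at adjusted p 0.0523 to 0.141, and without CSC 2 weeks replicate 3, at 0.0611 to 0.128. ACTN4 and ENAH were also lost without CSC 48 hours replicate 1, PFN2, ACTN4 and ENAH without CSC 2 weeks replicate 1, and ACTN4 without either DMSO 48 hours library. Their changes kept a like size with any 1 library left out, at -2.12 to -1.84 for TAGLN, -0.89 to -0.79 for PDLIM7, -0.53 to -0.47 for ACTN4, -0.48 to -0.41 for ENAH and 0.46 to 0.58 for PFN2. Without the filter on low values TAGLN, PDLIM7, ACTN4 and ENAH were lost, at adjusted p 0.0515 to 0.0805.

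Over time, 2 of the 93 genes, RDX and TNS1, were higher in DMSO at 2 weeks than at 48 hours, beside 0.656% of all genes, with a median of 0.22 beside 0.09, and 1, 0 and 0 were higher under the other scalings. In CSC 22 were higher and none lower, beside 12.3% and 1.38% of all genes, with a median of 0.28 beside 0.19. With median of ratios, a common sum and quantile normalization 4, 1 and 1 were higher in CSC, and 0, 1 and 0 lower.

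MYL9 had the widest span of group means of the 10 genes, 1.64 on the log2 scale. The genes with the most similar pattern over the 11 libraries were C1orf116 (Pearson r 0.976), RHOBTB2 (0.976), CEACAM5 (0.972), ITGB6 (0.969) and RGL1 (0.968), given as a description. CEACAM5 and RGL1 had a group mean above the filter minimum of 1 FPKM only in DMSO at 2 weeks (1.39 and 1.14 FPKM). MYL9 was highest in that group too, so the filter bears on the likeness of these genes to it. Within the 10 genes the correlation over the 11 libraries was highest between ACTB and ACTG1 (r 0.966) and lowest between ACTG1 and VCL (0.313). ACTB and ACTG1 can share fragments, whose part in their r was not tested, and ACTB with TPM2 reached 0.959. All libraries of a group and the scale of each library enter these values.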

How the data were processed

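RNA was sequenced from 11 libraries of A549 cells. Per the labels' protocols, ribosomal RNA was removed with a Ribo-Zero Gold kit and reads were aligned to hg19 with TopHat2 version 2.0.9. For the quantifier, annotation and strand setting, a name is not given in the sources used here. The authors deposited 25275 lines per library, each with an FPKM value for a gene at a locus and its bounds. Values at several loci were summed (548 of 23609 symbols), and 1 gene with a failed estimate was left out.

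Differences were fitted in R version 4.3.3 by limma version 3.58.1 (its moderated test, with a trend of variance with level), taking log2(FPKM + 0.5) of the 12506 genes with at least 1 FPKM in at least 2 libraries, with 4 groups in 1 fit. Fold changes are on that scale and understate the change of low genes. Calls are Benjamini-Hochberg adjusted p under 0.05 over all genes tested. FPKM are not counts, so no count model was used. The 10 genes and the comparison lists were chosen with earlier results of these data known. From each list, at most the 3 genes of lowest p over both comparisons of CSC with DMSO were named. Alternatives were the pseudocount, filter, scaling, trend, replicate block, libraries fitted and leaving out each library.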

Additional observations from a re-analysis of the deposited data

How the results depend on the processing

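Depth is unknown, 1 group has 2 libraries, and MYL9 has the widest deposited bounds, so small changes could not be told from the spread. The number called, over all 10 genes in each fit, was 0 at 48 hours and 0 for the difference of the effects under every alternative run. At 2 weeks it was 4, and it was 2 without the filter, 5 with median-of-ratios or common-sum scaling, 6 with quantile normalization and 1 to 4 when 1 library was left out. Over time in DMSO it was 2, and it was 1 without the filter, with a common sum or with quantile normalization, 3 with the compared libraries alone and 1 to 2 when 1 library was left out. Over time in CSC it was 2, and it was 1 without the filter, 0 with median-of-ratios, common-sum or quantile scaling or the compared libraries alone, and 0 to 2 when 1 library was left out.

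The replicate numbers did not pair the libraries throughout: of 15 same-number pairs 5 had a correlation over 0.1 (range -0.20 to 0.31). Whether some of the libraries were paired is not known. With the replicate number as a block, the counts were 0 at 48 hours, 4 at 2 weeks, 0 for the difference, and 2 over time in DMSO and 2 in CSC. Over all genes the block took the calls from 5.41% to 7.56% at 2 weeks and from 13.7% to 18.7% over time in CSC. They went from 0.288% to 0.352% at 48 hours and from 0.768% to 0.544% over time in DMSO.

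The sign turned for these printed changes, all without a call, and the cause was not tested. For the difference of the effects and for time in CSC, signs were followed for MYL9, TPM2, CALD1, FLNA and VCL. With quantile normalization ACTG1 at 48 hours was 0.089 and MYH9 over time in DMSO was -0.0040. With median-of-ratios, common-sum and quantile scaling, FLNA over time in CSC was -0.12, -0.23 and -0.32, CNN3 at 2 weeks -0.011, -0.050 and -0.0053, and TMOD3 at 2 weeks -0.053, -0.092 and -0.020. With 1 library left out, the 48-hour change was -0.39 to 0.0027 for ACTB, -0.27 to 0.13 for ACTG1, -0.35 to 0.21 for MYL9, -0.36 to 0.44 for TPM1, -0.37 to 0.13 for MYH9 and -0.024 to 0.47 for SRF. The 2-week change was -0.14 to 0.12 for ACTG1, -0.021 to 0.15 for CNN3 and -0.23 to 0.012 for SRF. The change over time in DMSO was -0.049 to 0.76 for TPM1 and -0.066 to 0.44 for MYH9, the change over time in CSC -0.15 to 0.068 for VCL, and the difference of the effects -0.31 to 0.045 for TPM2.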
